A study of Mus musculus with 30 samples.

Results

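Kidney arrays of 10 mice were divided by how much fat-cell transcript they held, and 8 of the 10 are compared here: 4 fat-rich and 4 fat-poor kidneys, out of 30 arrays of liver, kidney and brain in all. The groups were chosen by measured values. Each kidney received a fat score, the mean log2(signal + 16) of 6 probe sets, 1 each for Car3, Fabp4, Lipe, Retn, Ucp1 and Adipoq. A score above 11 defined the fat-rich kidneys and a score below 9 the fat-poor kidneys. The fat-rich kidneys were those of mice heavily mottled 1, slightly mottled 2, yellow 1 and yellow 2. The intermediate kidneys were those of pseudoagouti 2 and mottled 2, and the fat-poor kidneys those of mottled 1, pseudoagouti 1, heavily mottled 2 and slightly mottled 1. Values within a group are given in these orders, from the highest score to the lowest. All mice were males of genotype Avy/a, sampled at day 22, 2 in each of 5 coat classes, with 1 array per mouse and tissue. Avy is an allele of the agouti gene in which a retrotransposon can drive transcription in many tissues, and a is the nonagouti allele. The mice came from a colony kept by mating siblings with the allele held heterozygous. Liver, kidney and brain arrays with the same coat class and number were taken as those of 1 mouse, which the labels do not state. All comparisons between organs rest on this. The labels also give no dissection detail, so how much of the surrounding fat was left on each organ is not known.

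Adipocytes are cells that store triglyceride in lipid droplets, release fatty acids by lipolysis and secrete hormones such as adiponectin. White adipocytes hold mainly one large droplet and serve as an energy store. Brown adipocytes are rich in mitochondria and burn fatty acids to make heat, using the uncoupling protein UCP1 to let protons pass the inner mitochondrial membrane without ATP synthesis. In young mice the depot around the kidney is known to hold brown adipocytes. The kidney itself is made mostly of tubule epithelium, which oxidises fatty acids but lacks UCP1.

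The fat scores were 11.58, 11.52, 11.38 and 11.17 in the fat-rich kidneys, 9.93 and 9.87 in the intermediate kidneys and 8.32, 8.21, 7.92 and 7.58 in the fat-poor kidneys. Kidneys of one and the same coat class stood at both ends, since heavily mottled 1 had the highest score and heavily mottled 2 the second lowest. The kidneys nearest to the upper limit were yellow 2 (11.17) inside it and pseudoagouti 2 (9.93) outside it, and those nearest to the lower limit were mottled 1 (8.32) inside it and mottled 2 (9.87) outside it. Because these values chose the samples, every kidney difference between fat-rich and fat-poor samples is a description without a test. A probe set is called higher or lower in kidney when its 4 fat-rich and 4 fat-poor values did not overlap and the means differed by at least 1 on the log2(signal + 16) scale. Folds on this scale understate the difference of dim genes. In whole-organ RNA, fewer fat cells and less RNA per fat cell cannot be told apart.

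The 30 arrays had each been scaled to the same trimmed mean of 500. Median kidney signals were 114.3 to 152.6 in fat-rich and 121.6 to 140.4 in fat-poor kidneys. The highest kidney signal was 19007 to 45410 in fat-rich and 22991 to 39184 in fat-poor kidneys, and each group held 2 arrays above 30000 and 2 below. The ratio of 3 prime to 5 prime Gapdh signal, a measure of RNA integrity, was 0.775 to 0.826 in fat-rich and 0.759 to 0.826 in fat-poor kidneys. Transcripts typical of liver were also higher in the fat-rich kidneys, the level of fibroblast genes lay above that of the fat-poor kidneys, and their values are given with the results they touch.

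Ucp1, the carrier that makes brown fat mitochondria produce heat, separated the kidneys furthest. Its signals were 2528, 5276, 2349 and 2131 in fat-rich kidneys, 226 and 386 in intermediate kidneys, and 6.0, 60.6, 3.0 and 13.3 in fat-poor kidneys. The lowest fat-rich kidney lay far above the highest fat-poor one, and the intermediate pair lay between them. The mean log2 level was 11.49 ± 0.60 in fat-rich and 4.96 ± 0.90 in fat-poor kidneys (SD, n = 4 each), a difference of 6.53 or 92.4-fold. Ucp1 was itself 1 of the 6 probe sets of the score.

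Cox8b, a subunit of cytochrome c oxidase found in brown fat and muscle, was not part of the score and followed it closely. Its signals were 1668, 3344, 2212 and 1398 in fat-rich kidneys, 314.0 and 383 in intermediate kidneys, and 6.7, 9.8, 3.3 and 32.4 in fat-poor kidneys. The groups did not overlap and the difference was 6.24. Cidea, a lipid droplet protein of brown adipocytes, had 1922, 3167, 1952 and 1435 in fat-rich kidneys, 309.6 and 377 in intermediate kidneys, and 10.5, 47.3, 9.8 and 5.5 in fat-poor kidneys (difference 6.04). For Ucp1, Cox8b and Cidea alike the slightly mottled 2 kidney was the highest of all, and every fat-poor kidney was below 61.

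Adipoq, the gene of adiponectin, is made by white and brown adipocytes. It had signals of 2826, 3083, 2300.1 and 1772 in fat-rich kidneys, 427 and 569.8 in intermediate kidneys, and 83.7, 42.7, 22.1 and 3.4 in fat-poor kidneys (difference 5.75). Within the fat-poor kidneys the order of Adipoq was that of the score to which it contributes.

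The stretch of 250 bases before the start of the gene is shown for the 4 of the 6 most separated fat genes (Ucp1, Cox8b, Cidea, Adipoq, Car3 and Thrsp) for which RefSeq promoters were at hand, since these genes moved together across the kidneys. Capitals mark matches on either strand to AGGTCA, the half-site that nuclear receptors of the PPAR and thyroid hormone type recognise, to TGACG, the half-site of the cyclic AMP response element, and to CCAAT. Positions are those of build GRCm38.p6 and sequences run 5′ to 3′ on the strand of the gene, + for Ucp1 at chr8:83290098-83290347 and Adipoq at chr16:23146286-23146535, and − for Cox8b at chr7:140900447-140900696 and Thrsp at chr7:97417551-97417800.
Ucp1: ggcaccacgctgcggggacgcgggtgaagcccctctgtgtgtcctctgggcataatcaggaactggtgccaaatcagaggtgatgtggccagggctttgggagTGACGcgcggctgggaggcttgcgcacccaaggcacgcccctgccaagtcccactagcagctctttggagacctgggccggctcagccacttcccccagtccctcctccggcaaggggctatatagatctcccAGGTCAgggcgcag
Cox8b: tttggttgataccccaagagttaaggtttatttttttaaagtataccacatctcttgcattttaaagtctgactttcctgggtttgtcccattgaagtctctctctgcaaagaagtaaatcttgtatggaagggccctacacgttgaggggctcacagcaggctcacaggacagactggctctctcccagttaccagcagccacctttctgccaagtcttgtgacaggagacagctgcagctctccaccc
Adipoq: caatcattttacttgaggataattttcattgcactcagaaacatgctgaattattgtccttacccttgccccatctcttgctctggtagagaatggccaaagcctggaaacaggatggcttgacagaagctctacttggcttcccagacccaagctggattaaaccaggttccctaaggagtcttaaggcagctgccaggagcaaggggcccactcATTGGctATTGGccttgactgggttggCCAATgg
Thrsp: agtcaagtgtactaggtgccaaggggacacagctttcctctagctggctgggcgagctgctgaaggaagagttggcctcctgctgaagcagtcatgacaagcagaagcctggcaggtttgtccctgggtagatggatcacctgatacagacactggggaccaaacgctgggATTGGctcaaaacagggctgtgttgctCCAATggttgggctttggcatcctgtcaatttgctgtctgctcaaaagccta

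Ucp1 held TGACG with its first base 147 bases before the start and AGGTCA 14 bases before it. Over the 32851 mouse promoters of the same length, 17.8% held TGACG or its complement and 14.0% held AGGTCA or its complement. Adipoq held CCAAT or its complement at 3 places and Thrsp at 2, a match that 33.8% of all promoters had. Cox8b held none of these letters in the window. The direct repeat of the half-site with 1 base between the copies, which overlaps the half-site motif, and TATAA were in none of the 4 sequences. They occurred in 0.0335% and 22.8% of all promoters.

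**Figure D1:**
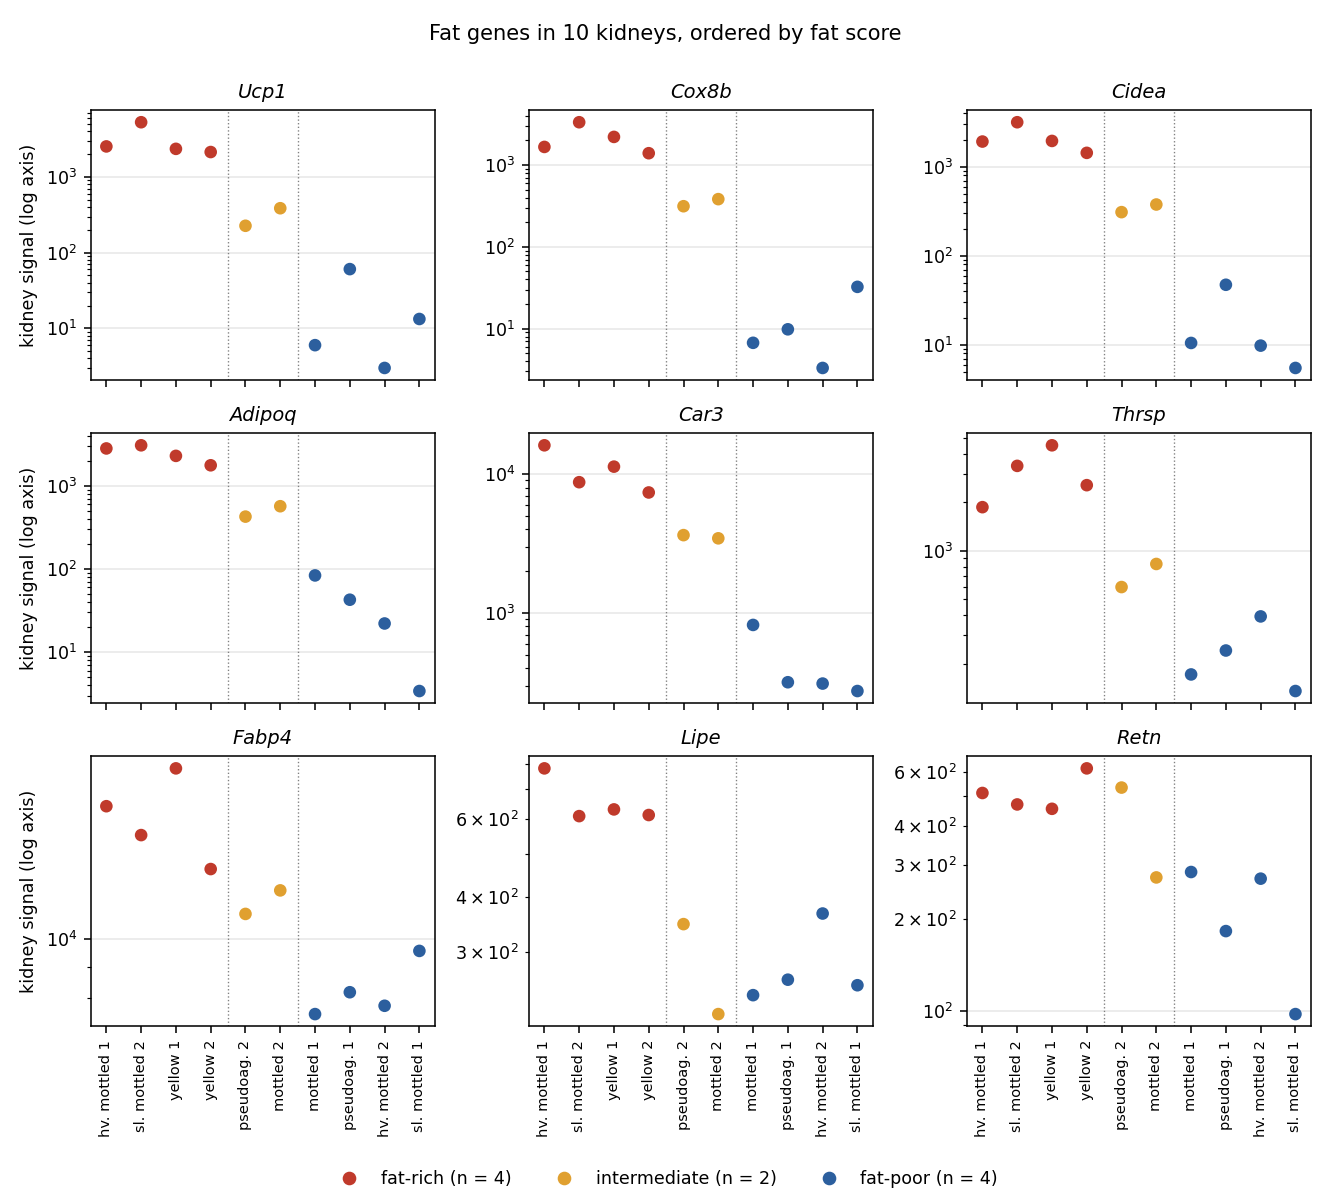
Signal on a log axis for 9 fat genes in each of the 10 kidneys, ordered by fat score with the fat-rich kidneys on the left, 1 point per array. Ucp1, Cox8b, Cidea and Adipoq fall into 3 levels, with fat-rich kidneys above 1000, the intermediate pair at 226 to 569.8 and the fat-poor kidneys below 100, while Fabp4, Lipe and Retn differ far less.

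The gene lists for fat held 132 genes, of which 119 were measured and 104 passed the filter on dim probe sets. Cfd and Plin1, 2 genes of the adipocyte lists, were not measured, as neither had a probe set with 1 gene symbol. Of the 119, 19 were higher in fat-rich kidneys and 0 were lower, and 14 of the 19 were not in the score. Among all 22519 probe sets that passed the filter 0.413% were higher and 0.0133% lower, and 13 of the 19 passed it. Of these 13, 5 (Ucp1, Cidea, Cox8b, Adipoq and Retn) would not have passed on the fat-poor kidneys, liver and brain alone, and 5 of the 19 chose the samples, so nothing is read from the counts against the background. The median difference was 0.22 over the fat genes and 0.007 over all probe sets. Leaving out 1 kidney at a time gave 19 to 22 higher fat genes. Without a minimum size of difference 27 fat genes were higher and 1 lower, against 1.39% and 0.586% of all probe sets. The lower one was Phldb2, which binds phosphoinositides, with 3700.1, 3712, 3914 and 3783 in fat-rich and 4378, 4283, 4316 and 4739 in fat-poor kidneys.

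The thermogenic brown fat list had 5 of 18 measured genes higher, with a difference in its mean level of 1.56. Besides Ucp1, Cox8b and Cidea these were Otop1, a proton channel, and Lhx8, a homeobox factor. Otop1 had 72.5, 262, 125.3 and 103.1 in fat-rich kidneys against 2.3, 26.8, 12.7 and 30.9 in fat-poor kidneys (difference 2.15). Lhx8 was dim at 20.1 to 36.3 in fat-rich kidneys against 1.7 to 11.8 in fat-poor kidneys, with a difference at the limit of the rule. Cox7a1, another cytochrome c oxidase subunit, did not overlap between groups but differed by only 0.90.

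Ppargc1a and Prdm16, regulators of the thermogenic programme, did not separate the kidneys, unlike Lhx8. Ppargc1a, the coactivator that drives mitochondrial genes, had 1782 to 2427 in fat-rich and 2230 to 2902 in fat-poor kidneys (difference −0.27). Prdm16, the factor that specifies brown fat cells, had 348 to 665.5 in fat-rich and 490.4 to 669 in fat-poor kidneys (difference −0.18). Both had a clear level in every kidney. Ebf2, another brown fat regulator, had 31.0 to 93.4 in fat-rich and 4.3 to 42.4 in fat-poor kidneys, a difference of 1.23 with overlap. Dio2, the deiodinase that activates thyroid hormone in brown fat, had 84.6, 588, 53.9 and 80.8 in fat-rich kidneys against 57.5, 46.1, 42.6 and 23.6 in fat-poor kidneys. Only slightly mottled 2 stood clear of the fat-poor range by a wide margin, and the groups overlapped. Elovl3, a fatty acid elongase, and Zic1, a marker of classical brown fat depots, overlapped too.

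In the uncoupling protein family 1 of 4 measured members, Ucp1, was higher. Ucp3, the muscle and brown fat member, had 153.7 to 205.5 in fat-rich and 86.5 to 106.9 in fat-poor kidneys, groups that did not overlap at a difference of 0.72. Slc25a14 and Slc25a27, members found in brain, differed by −0.19 and 0.05. In the fatty acid binding protein family 0 of 7 members met the rule. Fabp4, the adipocyte member, had 16537, 14826, 19081 and 13039 in fat-rich kidneys, 11004 and 12028 in intermediate kidneys, and 7534, 8183, 7775 and 9568 in fat-poor kidneys. These did not overlap, but with a high level in every kidney the difference was 0.93. Fabp4 is also expressed by endothelial cells. A further Fabp4 probe set overlapped at 5040 to 7980 in fat-rich and 4059 to 5886 in fat-poor kidneys. The muscle and kidney member Fabp3 differed by −0.09 and the epidermal member Fabp5 by 0.28.

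The list of adipocyte identity and its regulators had 6 of 15 measured genes higher, with a difference in mean level of 1.44. Car3, a carbonic anhydrase abundant in adipocytes and liver, had 16126, 8747, 11321 and 7377 in fat-rich kidneys, 3637 and 3450 in intermediate kidneys, and 820.5, 317, 310.4 and 274 in fat-poor kidneys (difference 4.69). Heavily mottled 1 was highest for Car3 but not for Ucp1 or Adipoq. Cidec, a protein that fuses lipid droplets, had 210.2, 291, 269 and 208 in fat-rich kidneys against 3.9, 35.5, 28.2 and 34.9 in fat-poor kidneys (difference 2.73).

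Lipe, the hormone-sensitive lipase, had 781, 609, 630.3 and 612 in fat-rich and 239, 259, 366 and 252 in fat-poor kidneys (difference 1.20). Retn, the hormone resistin, had 513, 471, 456 and 617.5 in fat-rich kidneys against 284, 182, 269.8 and 97.6 in fat-poor kidneys (difference 1.33). Adig, adipogenin, differed by 1.53. Pparg, the nuclear receptor that directs fat cell differentiation, had 169.8, 258, 214.5 and 97.7 in fat-rich and 25.0, 120.5, 115.4 and 30.4 in fat-poor kidneys. The yellow 2 kidney lay below 2 of the fat-poor kidneys, so the groups overlapped. Cebpa and Cebpb, factors that act with Pparg and are active in other tissues too, overlapped at differences of 0.61 and 0.35.

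Of 14 measured genes on the list of adipokines and white fat, 4 were higher: Adipoq, Retn, Nnat and Nrg4. Nnat, an imprinted membrane protein of endocrine, brain and fat cells, had 288, 207, 176 and 192 in fat-rich kidneys against 79.3, 52.2, 77.5 and 38.2 in fat-poor kidneys (difference 1.59). Nrg4, a growth factor that brown adipocytes secrete, had 104.6 to 172.9 in fat-rich kidneys against 26.8 to 65.4 in fat-poor kidneys (difference 1.27). Lep, the gene of leptin and a product mainly of white adipocytes, stayed near background at 56.6, 14.4, 43.9 and 10.0 in fat-rich kidneys against 10.9, 14.7, 6.6 and 6.1 in fat-poor kidneys. Its groups overlapped. Sfrp5 and Slc7a10, other genes of white fat, differed by 0.66 and 0.34 with overlap.

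The lipid droplet and lipolysis list had 4 of 14 measured genes higher. They were Cidea, Cidec, Lipe and Plin4, a coat protein of droplets with 439, 382, 173 and 424 in fat-rich and 56.8, 47.4, 127.6 and 19.5 in fat-poor kidneys (difference 2.33). Pnpla2, the first lipase of triglyceride breakdown, did not overlap at a difference of 0.80. Plin2, Abhd5 and Hilpda, droplet proteins of many cell types, differed by 0.17, 0.05 and 0.05.

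Prkar2b, the regulatory subunit of protein kinase A that predominates in fat and brain, was the 1 of 5 measured genes higher on the adrenergic and cyclic AMP list. It had 660.4, 1292, 673 and 688.5 in fat-rich kidneys, 452 and 446 in intermediate kidneys, and 141.6, 215, 133 and 86.7 in fat-poor kidneys (difference 2.40). Its other 2 probe sets differed by 2.67 and 2.19. Pde3b, a phosphodiesterase that insulin activates in fat cells, did not overlap at 0.50, and the receptor genes of the list are not analysed here.

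On the fatty acid and triglyceride synthesis list 4 of 18 genes were higher. Thrsp, a lipogenic protein induced by thyroid hormone, had 1867, 3366, 4515 and 2555 in fat-rich kidneys, 596.6 and 829.5 in intermediate kidneys, and 171, 241, 392 and 135 in fat-poor kidneys (difference 3.65). Its other probe set differed by 2.11. Scd1, the desaturase that makes oleate, had 10057, 4523, 4579 and 5572 in fat-rich kidneys against 3024, 1300.3, 2578 and 1414 in fat-poor kidneys (difference 1.58). Fasn, fatty acid synthase, had 2132, 2352, 4049 and 3083 in fat-rich kidneys against 1118, 1074, 1261 and 1208 in fat-poor kidneys (difference 1.26). Agpat2, an acyltransferase needed for fat storage, differed by 1.20. Yellow 1 was highest for Thrsp, Fasn and Agpat2, and heavily mottled 1 for Scd1.

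No gene was higher on the lists of fatty acid oxidation (0 of 14), fatty acid uptake (0 of 13) and insulin and glucose uptake (0 of 9). Their median differences were 0.07, 0.27 and 0.19. Summed signals in fat-poor kidneys were 85408 to 88921 for the oxidation list and 59086 to 75220 for the uptake list. For the insulin and glucose list they were 10184 to 11198. Acadm, a dehydrogenase of medium-chain fatty acids, had 10779 to 23941 in fat-rich and 12742 to 14866 in fat-poor kidneys. Lpl, lipoprotein lipase, overlapped at 7990 to 19526 in fat-rich and 8002 to 11911 in fat-poor kidneys. Slc2a4, the insulin-responsive glucose transporter, overlapped at 752 to 884 in fat-rich and 504.5 to 820.6 in fat-poor kidneys.

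**Figure D2:**
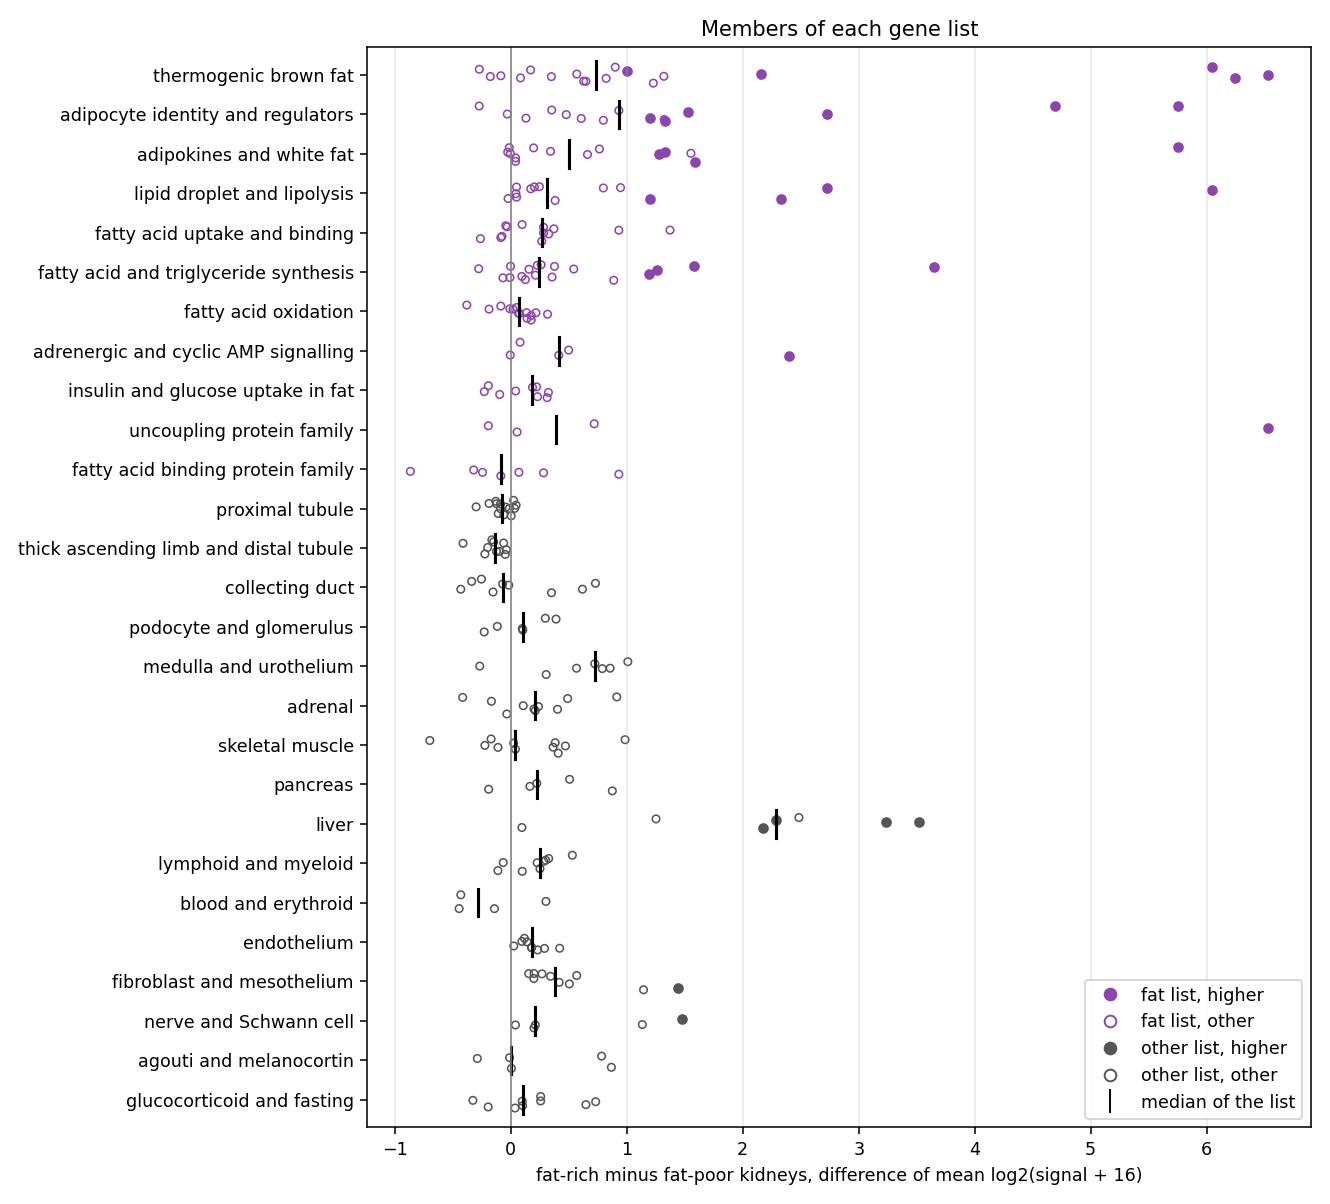
Difference of mean log2(signal + 16) between fat-rich and fat-poor kidneys for each measured member of 27 gene lists, 1 circle per gene, filled where the groups did not overlap at a difference of at least 1, with the list median as a bar. The filled points of the fat lists reach 6.53, the liver markers have a median of 2.29, and the tubule lists lie around 0.

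The intermediate kidneys of pseudoagouti 2 and mottled 2 lay below every fat-rich kidney for 17 of the 19 higher fat genes, and for 10 they also lay above every fat-poor kidney. Retn was an exception to the first, since pseudoagouti 2 at 534.6 lay within the fat-rich range. Lipe was an exception to the second, since mottled 2 at 216.5 was lower than any fat-poor kidney. Outside the score, and among probe sets with 1 gene symbol, the genes most alike to it over the 10 kidneys, by Pearson correlation of log2 values as a description without a p, were Cidea (0.989), Cox8b (0.972), Prkar2b (0.971) and Thrsp (0.951). Serpinf1, Pon1, Nnat, Zkscan16, Ifi27 and Retnla followed at 0.931 to 0.907. Among the higher probe sets without a single symbol, 2 reached 0.981 and 0.950. All of these come from the same 10 arrays that gave the score.

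Among the fat-rich kidneys the brown fat genes and adiponectin did not keep one ratio. The log2 level of Ucp1 minus that of Adipoq was −0.16, 0.77, 0.03 and 0.26 in the fat-rich kidneys and −0.87 and −0.54 in the intermediate pair. Slightly mottled 2 thus had the most Ucp1 for its Adipoq, and the intermediate kidneys had the least of these 6. In the fat-poor kidneys both genes were too near background for a ratio. After the line on Adipoq was removed, the gene most alike to Ucp1 was Cidea (r = 0.941 over 10 kidneys), ahead of Mmd, Dipk1b, Terf2ip and Myadm. The largest residuals of Ucp1 belonged to fat-poor kidneys, −1.75 in mottled 1 and 1.22 in slightly mottled 1, where its signal was low. The same Adipoq values entered the residuals of Ucp1 and of each compared gene. Noise of Adipoq near background in the fat-poor kidneys can thus raise these correlations by itself. Mmd, Dipk1b, Terf2ip and Myadm each overlapped between the fat-rich and fat-poor kidneys, so nothing is read from this ranking.

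Over all probe sets that passed the filter 93 were higher and 3 lower in fat-rich kidneys, the background shares given above. The 93 belonged to 75 genes, and 12 of them had no single gene symbol. The most separated of these 12 had 3589 to 5312.5 in fat-rich and 11.3 to 167 in fat-poor kidneys. Its difference of 5.72 was larger than that of Car3 or Thrsp. Genes of fat cells outside the lists were among them. Mrap, an accessory protein of the ACTH receptor that adipocytes express, had 118.9, 256, 145.4 and 164.9 in fat-rich kidneys against 20.4, 14.9, 23.0 and 8.1 in fat-poor kidneys (difference 2.50). The liver expresses Mrap too, at a mean of 1665, and the fat-rich kidneys were at 6.43% to 14.3% of the own liver level. Retnla, a resistin-like protein, had 519.6, 563.5, 379.7 and 352 in fat-rich kidneys against 219.8, 92.8, 67.8 and 20.9 in fat-poor kidneys (difference 2.29). Acvr1c, a receptor of the activin family found in fat cells, had 56.5, 243.9, 60.1 and 26.6 in fat-rich kidneys against 1.0, 11.4, 12.9 and 7.6 in fat-poor kidneys (difference 1.90). S100b, a calcium-binding protein of glia and adipocytes, differed by 1.72 and 1.47 at its 2 probe sets. At the first, yellow 2 had only 7.3 against 2.9 to 7.0 in fat-poor kidneys. Nat8l, the acetylaspartate synthase of neurons and brown adipocytes, differed by 1.42. Both genes were bright in brain, with means of 1715 and 4480 for S100b and 1559 for Nat8l. Other higher genes were bright in brain too, such as Slc1a3 (4705), Baalc (1576), Caskin1 (1312) and Asphd1 (1102).

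Transcripts of hepatocytes moved with the fat genes. Alb, albumin, had 1270, 2083, 4378 and 10094 in fat-rich kidneys, 362 and 3642 in intermediate kidneys, and 254, 677, 150.6 and 473 in fat-poor kidneys (difference 3.24). Ahsg, the plasma protein fetuin A, had 95.6, 189, 358 and 1313 in fat-rich kidneys against 7.1, 38.9, 5.3 and 8.4 in fat-poor kidneys (difference 3.52). Fgb, a fibrinogen chain, had 7.3, 69.9, 88.9 and 293.7 in fat-rich kidneys against 3.1, 2.4, 1.5 and 2.7 in fat-poor kidneys (difference 2.29). Cyp3a11, a drug-metabolising enzyme, differed by 2.18. In the fat-rich kidneys these 4 genes increased from heavily mottled 1 to yellow 2, the opposite of the order of the fat score. Of 7 measured liver markers 4 were higher. The 3 others were Apoa1 and Apoc3, which overlapped at differences of 2.48 and 1.25, and Ttr, which differed by 0.10. The summed signal of the 7 was 10933 to 23870 in fat-rich, 9324 to 18135 in intermediate and 8635 to 12806 in fat-poor kidneys.

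Among the 20 genes with the largest differences another 7 were plasma proteins or enzymes of liver, namely Hp, Pzp, Serpina1c, Plg, Pon1, Apoa1 (at another probe set) and Ces1c, with differences of 2.34 to 2.91. By a definition added after these values were seen, a probe set was called liver-expressed if its mean over the liver arrays was at least 10 times its mean over the fat-poor kidneys. Of the 93 higher probe sets 56 were liver-expressed (60.2%), against 577 (2.56%) of all that passed the filter, and 37 were not. A low signal in fat-poor kidneys favours both the call and this definition, so the share of 60.2% is partly built in. The signal of a kidney as a percentage of the liver signal of the same mouse, taken as the median over the 56 probe sets, was 0.765%, 1.25%, 1.59% and 3.21% in the fat-rich kidneys. It was 0.572% and 0.978% in the intermediate pair and 0.426%, 0.435%, 0.291% and 0.406% in the fat-poor kidneys. The probe sets were selected as higher in fat-rich kidneys, so the gap between the groups is built in, and only the order within a group was not.

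The higher fat genes differed in their signal in liver. Ucp1, Cox8b, Cidea and Adipoq had mean liver signals of 16.5, 28.0, 34.9 and 22.9, at or near background and far below their fat-rich kidney signals. Of the 13 fat genes higher among the probe sets that passed the filter, 10 were not liver-expressed and 3 were, namely Car3, Thrsp and Scd1. Car3 in the fat-rich kidneys was at 26.2% to 45.4% of the own liver level, Thrsp at 13.0% to 23.2% and Scd1 at 15.3% to 29.4%. Fasn and Agpat2 fell short of the factor of 10, with liver means of 7666 and 5746 against fat-poor kidney means of 1165 and 652. In the fat-rich kidneys they were at 25.5% to 51.7% and 17.2% to 34.9% of the own liver level. In the same kidneys Fgb was at 0.0187% to 1.16%, Ahsg at 0.263% to 4.71% and Alb at 4.20% to 46.8%. The part of liver transcript in the Car3, Thrsp, Scd1, Fasn and Agpat2 differences was not tested. With liver-expressed probe sets left out, 16 fat genes met the rule, Fasn and Agpat2 among them. The definition came after the values and the kidneys were chosen on fat genes, so nothing on liver transcript is read from this count.

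**Figure D3:**
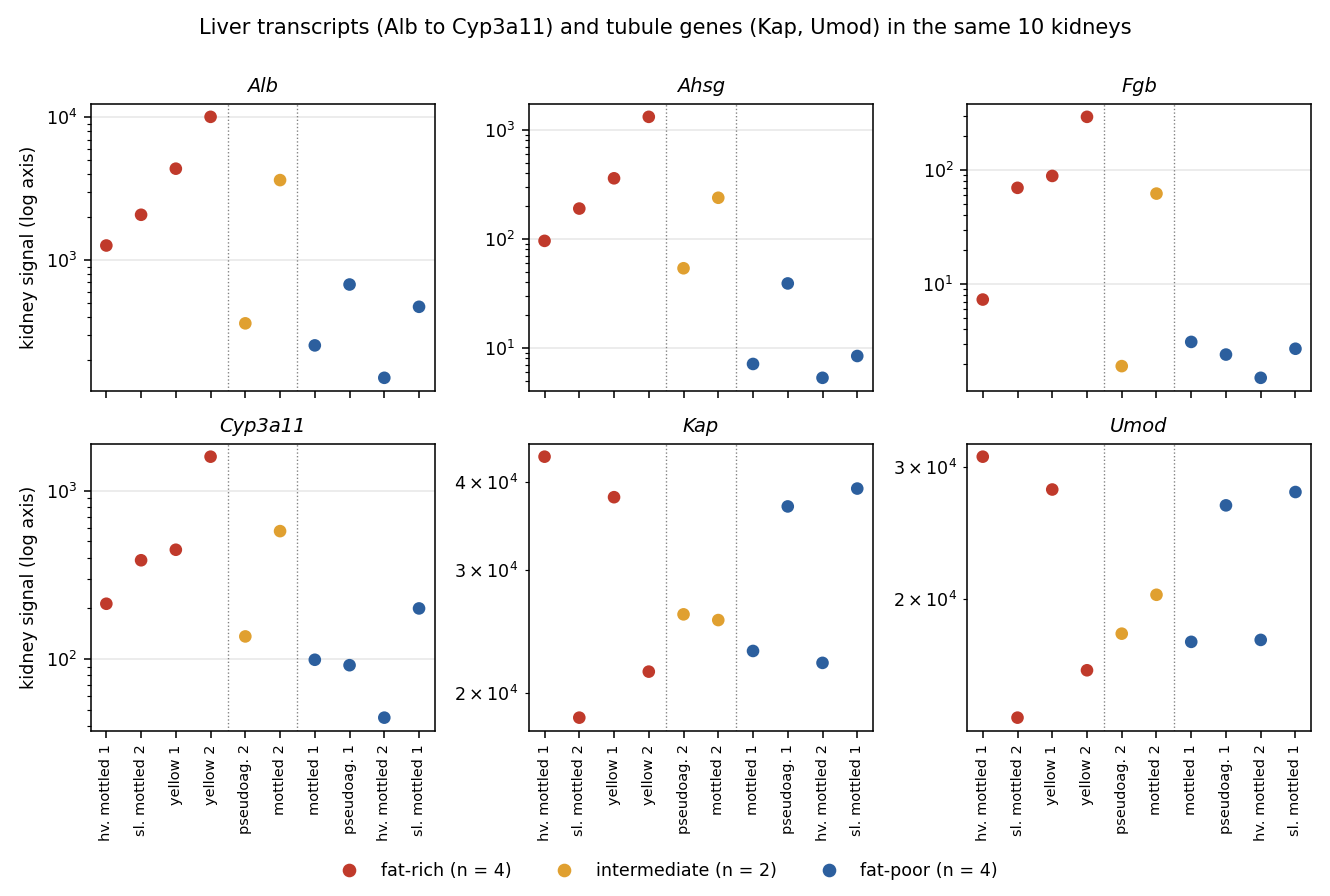
Signal on a log axis for 4 liver transcripts (Alb, Ahsg, Fgb, Cyp3a11) and 2 tubule genes (Kap, Umod) in the 10 kidneys, ordered by fat score with the fat-rich kidneys on the left, 1 point per array. The liver transcripts are highest in yellow 2 and lowest among fat-rich kidneys in heavily mottled 1, and Kap and Umod overlap between the groups.

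Tubule and glomerular genes did not meet the rule in either direction. None of the 14 proximal tubule genes, the 10 genes of the thick ascending limb and distal tubule, the 9 collecting duct genes or the 6 glomerular genes was higher or lower. Kap, an androgen-regulated tubule protein, had 18464 to 43510 in fat-rich and 22104 to 39184 in fat-poor kidneys (difference −0.04). Umod, a urinary protein made in the loop of Henle, had 13865 to 30964 in fat-rich and 17509 to 27771 in fat-poor kidneys (difference −0.06). The median differences of these 4 lists were −0.07, −0.13, −0.07 and 0.10. Positive differences numbered 4 of 14, 0 of 10, 3 of 9 and 4 of 6. Those of the thick ascending limb and distal tubule genes were thus all negative, at −0.41 to −0.04. Without a minimum size of difference 1 collecting duct gene was lower, as were 0.586% of all probe sets.

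The medulla and urothelium list had 0 of 7 genes higher but a median difference of 0.72 and a difference in mean level of 0.57, with 6 of 7 differences positive. Its mean levels overlapped, at 9.75 to 10.26 in fat-rich and 8.47 to 10.11 in fat-poor kidneys, and its part in the other differences was not tested. The urothelial genes set apart 1 fat-poor kidney. Upk2, a uroplakin of the urinary tract lining, had 489, 689, 502 and 641 in fat-rich kidneys against 369.9, 585.8, 490.6 and 99.6 in fat-poor kidneys. Upk1b was at 334 to 780.3 in fat-rich kidneys against 261.6, 489, 464.5 and 52.9 in fat-poor kidneys, and the water channel Aqp2 at 6232 to 9964 in fat-rich kidneys against 4170, 9013, 4998 and 2781 in fat-poor kidneys. The low value in each case was the kidney of slightly mottled 1, which also had the lowest fat score. Upk3b, a mesothelial marker, was lowest there too, at 41.2 against 163 to 501 in the other fat-poor kidneys and 247 to 623 in fat-rich kidneys.

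Fibroblast and mesothelium genes ran with the fat genes. All 10 had a positive difference (median 0.38), and the mean level of the list was 10.21 to 10.78 in fat-rich and 9.81 to 10.14 in fat-poor kidneys, which did not overlap (difference 0.52). In this list 1 of 10 genes, Pi16 (1.44), met the rule, and the part of these cells in the fat differences was not tested. The mean levels of the adrenal, muscle and nerve lists overlapped between the groups. The adrenal list summed to 684 to 851 in fat-rich and 540 to 733 in fat-poor kidneys over 10 genes, with 0 higher, and its steroid enzymes Cyp11a1 and Cyp11b1 were at 24.6 to 121.9 in all 8. Of the 11 skeletal muscle genes 0 were higher, and Pvalb, which the tubule also expresses, made up most of their sum of 3013 to 4871 in fat-rich and 3586 to 4954 in fat-poor kidneys. Muscle actin Acta1 was at 34.9 to 54.9 in fat-rich and 13.9 to 57.6 in fat-poor kidneys. The nerve and Schwann cell list had 1 of 5 higher, S100b. Endothelial, blood, lymphoid and myeloid, pancreatic, agouti and glucocorticoid lists had 0 higher each. Positive differences were not particular to fibroblast genes. They numbered 9 of 9 for endothelial genes (median 0.18, mean levels overlapping), 5 of 5 for nerve genes and 7 of 9 for lymphoid and myeloid genes. For pancreatic, agouti and glucocorticoid genes they numbered 4 of 5, 3 of 5 and 7 of 9, and for blood genes 1 of 4.

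Few genes were lower in fat-rich kidneys, and the 3 that met the rule were dim. Cend1 had 8.1, 3.8, 2.6 and 7.4 in fat-rich and 45.3, 78.1, 20.2 and 9.2 in fat-poor kidneys (difference −1.17), Ntrk2 at 1 of its probe sets differed by −1.09 and Neto2 by −1.05. These are genes of neurons, where Ntrk2 is the receptor of the growth factor BDNF. At another probe set Ntrk2 was higher in fat-rich kidneys (1.02), so its probe sets disagreed. Brighter genes came close to the rule. Oxct1, which lets cells use ketone bodies, had 1140.3 to 1476 in fat-rich and 1583 to 3436 in fat-poor kidneys (difference −0.84), and Mreg, a protein of organelle transport, 165.3 to 444 in fat-rich and 535 to 655.5 in fat-poor kidneys (difference −0.82).

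Since genes of the score belong to the thermogenic and the identity list, the choice of kidneys fixes the direction of their difference in any subset, and only the sizes describe the arrays. For the thermogenic list the difference in mean level was 1.36 among the arrays with a highest signal above 30000 and 1.77 among those below it, and for the identity list 1.44 and 1.43. It was 1.42 and 1.43 for the 2 lists among mice numbered 1, and 1.67 and 1.36 among mice numbered 2. The liver list, which holds no gene of the score, differed by 1.35 in the bright and 2.95 in the dim arrays.

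Whether fat in the kidney samples ran with coat colour was tested on labels that had no part in choosing the samples. Yellow mice had a mean score of 11.27 ± 0.15 (SD, n = 2 here and for each other class). The mean was 9.55 ± 2.79 for the slightly mottled class, 9.09 ± 1.09 for the mottled class and 9.75 ± 2.59 for the heavily mottled class. Pseudoagouti mice averaged 9.07 ± 1.22. Both yellow mice were fat-rich, while slightly mottled and heavily mottled mice each gave 1 kidney to either group. The slope was −0.42 ± 0.35 (SE) per coat step from 0 (yellow) to 4 (pseudoagouti), with a two-sided exact permutation p of 0.263 over 113400 arrangements (0.525 after adjustment over 2 tests). Within the mice numbered 1 the slope was −0.23 (exact p = 0.717) and within those numbered 2 it was −0.61 (exact p = 0.200, n = 5 each). Mice numbered 2 averaged 10.08 ± 1.41 and mice numbered 1 averaged 9.41 ± 1.91 (SD, n = 5 each), a difference of 0.67 with an exact permutation p of 0.532. With 1 mouse left out this difference was between 0.209 (without slightly mottled 1) and 1.21 (without heavily mottled 1). Neither label met the 0.05 threshold.

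**Figure D4:**
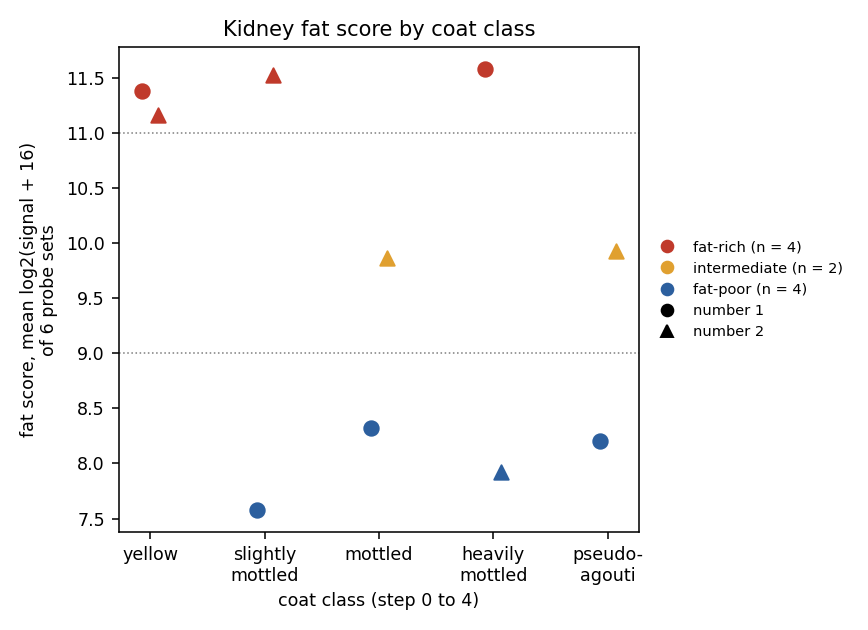
Fat score, the mean log2(signal + 16) of 6 probe sets, of each of the 10 kidneys by coat class from yellow (step 0) to pseudoagouti (step 4), with circles for number 1, triangles for number 2 and dotted lines at the limits 11 and 9. The yellow mice are both above 11, and the 2 mice of the slightly mottled and of the heavily mottled class lie at opposite ends.

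In limma's fit of kidney expression on coat step 1 probe set of 22519 was called (0.00444%), that of the agouti gene a (adjusted p = 0.0353, slope −0.65). The call was lost when any 1 mouse other than heavily mottled 2, slightly mottled 1 or mottled 2 was left out. None of the 104 fat genes in the fit was called. An unadjusted p under 0.05 was reached by 6 of them (5.77%), of which 2 had a positive slope. It was reached by 463 of all 22519 probe sets, a smaller share. The lists were chosen with earlier results known, so nothing is read from this. The agouti transcript did not separate the groups by fat. It had 127.1, 470.3, 655 and 722 in fat-rich kidneys, 101.0 and 391 in intermediate kidneys, and 306, 80.3, 270.3 and 334 in fat-poor kidneys. Heavily mottled 1, with the highest fat score, had less a than 3 of the 4 fat-poor kidneys.

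Liver and brain arrays taken as those of the same mice were tested for differences between the same groups. In liver 0 of 22519 probe sets were called (0%) between mice with fat-rich and fat-poor kidneys by limma with Benjamini-Hochberg adjustment, and the smallest adjusted p was 0.9998. At an unadjusted p under 0.05 there were 374 (1.66%). In brain 0 were called (0%), with a smallest adjusted p of 0.9996, and 416 (1.85%) passed unadjusted. On simulated data with 200 changed probe sets the liver fit recovered 36% of differences of 1 log2 and 86% of differences of 2 log2. The brain fit recovered 33.5% and 90%. Most differences of 1 log2 or less would thus be missed, and 0 calls do not show that the mice were alike. Of the 104 fat genes, 3 had an unadjusted p under 0.05 in liver (2.88%) and 2 in brain (1.92%), with median differences of −0.03 and 0.05.

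The genes that separated the kidneys furthest were not called in the other organs. In liver Ucp1 had 5.4 to 35.5 in mice with fat-rich and 7.1 to 26.3 in mice with fat-poor kidneys (difference 0.05 ± 0.36, SE). Liver Car3 had 22941 to 39362 in mice with fat-rich and 22087 to 35352 in mice with fat-poor kidneys (0.05 ± 0.22). Liver Thrsp had 14352 to 20159 in the fat-rich and 11011 to 28004 in the fat-poor mice (−0.05 ± 0.27), and Scd1 differed by −0.09 ± 0.16. Each adjusted p was 0.9998. Adipoq was dim in both groups of livers, at 3.8 to 21.4 in mice with fat-rich and 21.5 to 60.9 in mice with fat-poor kidneys, and differed by −0.82 ± 0.31 (adjusted p = 0.9998). Of the 19 higher fat genes and Fabp4, 1 of 20 did not overlap in liver (Adipoq) and 1 of 20 in brain (Plin4). Of all probe sets that passed the filter 1.33% did not overlap in liver and 1.31% in brain. Brain Plin4 had 106.8 to 156.4 in mice with fat-rich and 33.9 to 89.0 in mice with fat-poor kidneys.

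The genes nearest to the threshold in the other organs were not genes of fat. In liver the smallest unadjusted p-values belonged to Mal, Pcp4, Rab3a, Myo16 and Rgs7bp among genes higher in mice with fat-rich kidneys, and to B230217C12Rik, Cacna2d1, Col4a6, Zfp804a and Efhd1 among lower ones. All 10 had signals of 301 or less. In brain they were Lrrtm1, C4bp, Cabcoco1, Nsmce4a and Car5b among higher genes and Arpp21, Rgmb, Gtf3c2, Wars and Adgra2 among lower ones. Lrrtm1, an adhesion protein of synapses, had 1656 to 2528 in brains of mice with fat-rich and 1195 to 1402 in those of mice with fat-poor kidneys, a difference of 0.64 ± 0.15 (SE, adjusted p = 0.9996).

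**Figure D5:**
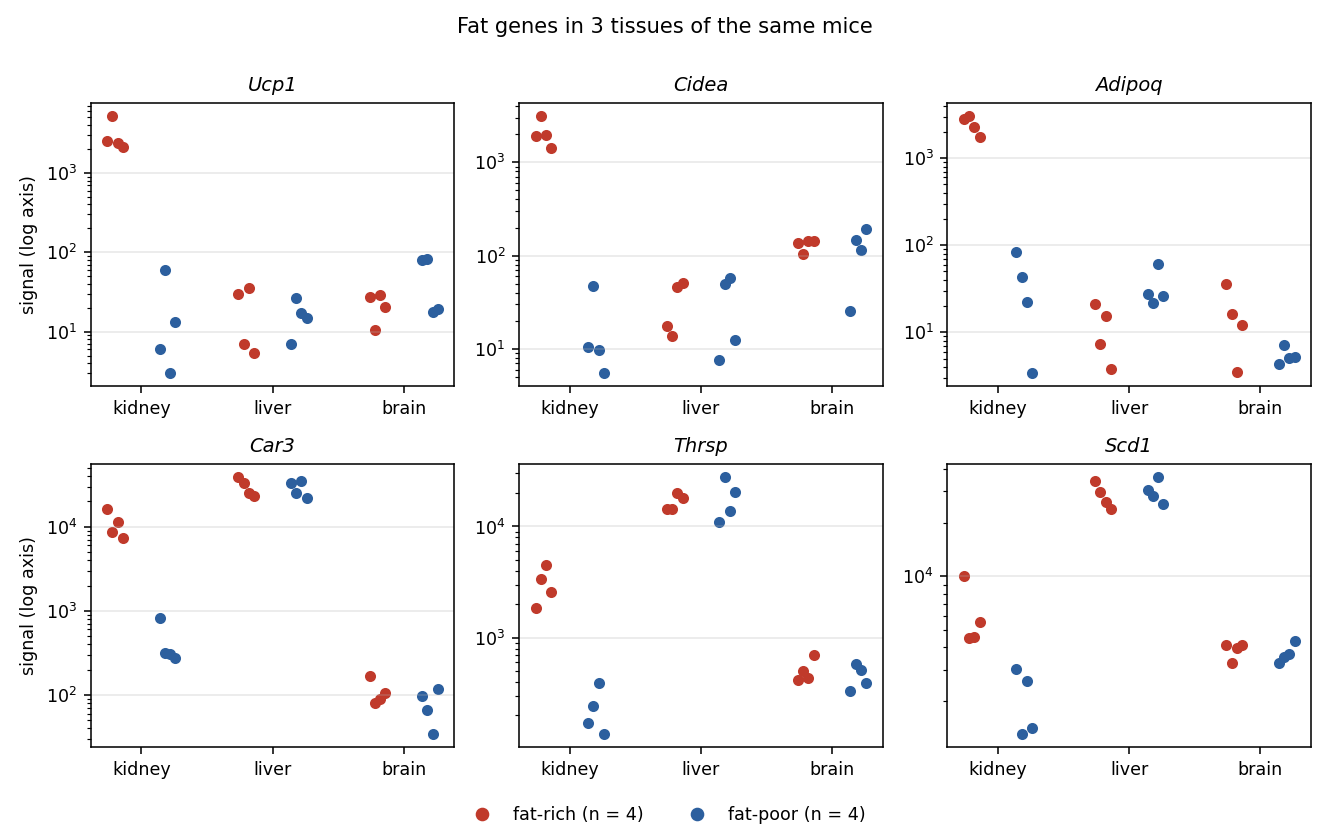
Signal on a log axis for 6 fat genes in kidney, liver and brain of the 4 mice with fat-rich kidneys (left in each pair) and the 4 mice with fat-poor kidneys (right), 1 point per array. The groups are apart in kidney for each gene, and overlap in liver and brain except for Adipoq in liver, where all signals are below 61.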

How the data were processed

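The deposited values are linear signal intensity per probe set on Affymetrix Mouse Genome 430 2.0 arrays, computed by the authors with MAS5 per the submitters' processing notes; its version is not given in the sources used here. Each deposited array had a trimmed mean of 500.0 with 2% trimmed at each end, and there are no detection calls. Depth does not apply to arrays, whose number limits the precision. Log2(signal + 16) was computed here.

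Of 45101 probe sets 64 controls were left out, and 22519 passed a filter, the highest of 3 tissue mean signals being at or above its median of 251.8. Of the others, 34945 had 1 gene symbol, 932 several and 9160 none. For a listed gene the score's probe set was used, or else the one of highest mean signal. The members and lists were chosen with earlier results of these data known.

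Kidney groups were described without a test. Liver and brain of the same 8 mice were tested with limma 3.58.1 in R 4.3.3 (eBayes with trend, Benjamini-Hochberg adjusted p under 0.05), and so was the kidney slope on coat step over 10 arrays. The score was tested on labels by exact permutation. The limma fits were tested on simulated data. Named genes were the score, every higher or lower list member with up to 2 of the smallest difference, up to 2 of each other list, the 20 largest and 10 most negative differences, the 5 smallest p per direction in liver and brain, the gene a, the 10 most alike to the score, and the 5 most alike to Ucp1 beyond Adipoq. Members named otherwise, such as Dio2, Pparg, Lep, Upk3b, Acvr1c, S100b and Nat8l, were chosen after their values were seen. Figures and tables were made with Python 3.11.15.

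The deviation of the numbered mice from their class mean was correlated over probe sets between coat classes. In liver these correlations were 0.130 to 0.392 in 10 of 10 pairs of coat classes, so differences between the numbers were partly shared across classes. In kidney these correlations were 0.00836 to 0.533, with 9 of 10 above 0.1. In brain they were −0.00868 to 0.500, with 6 of 10 above 0.1. Alternatives were offsets of 1 and 64, other filters, quantile normalisation, the number as a block, other divisions of the mice, covariates and leaving out each mouse. Arrays of either brightness, liver-expressed probe sets and the count of fat genes under these settings were added after the data were seen.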

Additional observations from a re-analysis of the deposited data

Results flagged for a closer look

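In groups of 4 kidneys, 1 kidney stood apart by Dixon's test at the 95% level in 7 of the 98 groups of values examined, and chance alone flags about 1 in 20. Car3 in fat-poor kidneys had its highest value, 820.5, in mottled 1, whose fat score was the highest of that group. Cidec was lowest in mottled 1, at 3.9. Among fat-rich kidneys Lipe was highest in heavily mottled 1 (780.9), Prkar2b highest in slightly mottled 2 (1292.3) and Plin4 lowest in yellow 1 (173.4). In fat-poor kidneys pseudoagouti 1 had the highest Ahsg, at 38.9, and the lowest level of the agouti gene a, at 80.3.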

How the results depend on the processing

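The main counts in fat-rich kidneys were 93 probe sets higher and 3 lower. The higher count was 61 with an offset of 64, 183 without the filter, 41 with kidneys divided at a score of 10, 312 without a minimum fold and 37 without liver-expressed probe sets. It was 104 to 147 with 1 kidney left out, reaching 144 without heavily mottled 1 and 147 without pseudoagouti 1, as fewer samples overlap less. The lower count was 9 with an offset of 1, 0 with an offset of 64, 34 without the filter, 8 after quantile normalisation, 132 without a minimum fold, 25 without yellow 2 and mottled 1 together, and 4 to 19 with 1 kidney left out. The 19 higher fat genes numbered 13 to 27 over all settings tried. The difference in level of the thermogenic list was 1.56, 2.05 with an offset of 1, 1.13 with an offset of 64 and 1.29 with kidneys divided at 10. For the adipocyte identity list it was 1.44, 1.61, 1.20 and 1.24 in that order. The smaller offset widens and the larger narrows differences of dim genes. In liver and brain 0 probe sets were called under every alternative run, the replicate block included. The coat slope of the score was −0.42 with and without the replicate block (exact permutation p = 0.281 with it), and −0.574 to −0.308 with 1 mouse left out. The difference between numbers, 0.67, had an exact permutation p of 0.625 within coat pairs. The 1 call of the kidney coat slope held with the replicate block and was 0 to 1 with 1 mouse left out. It was lost without heavily mottled 1, slightly mottled 2, yellow 1, yellow 2, pseudoagouti 2, mottled 1 or pseudoagouti 1, and the cause was not tested. No result reversed. With 4 kidneys per group, 1 array each, SDs include dissection and array differences alike.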
